A study of Mus musculus with 14 samples.

Results

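The genes described here are 5 mouse carbonic anhydrases, Car1, Car2, Car3, Car4 and Car13, in RNA-seq of whole bone marrow plugs from 14 samples. They were named by symbol and selected on their measured levels, since each had been noticed in earlier results of the same 4 groups, so the differences between groups are given below as a description of the members with no p-value, and any count of members past a criterion is a description too. The gene table of this series lists 55401 genes, 16 of them carbonic anhydrases, and 10 of the 16 were among the 17671 genes that passed the filter on low counts. Of the 5 members, 4 are in the deposited count matrix and passed the filter, and Car4 did neither, so its counts were read from the per-sample gene counts by its identifier.

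The study deleted Pnpla2, the gene of adipose triglyceride lipase, in bone marrow adipocytes and asked how the marrow of such mice responds to caloric restriction. The mice were males of a mixed C57BL6/SJL background, 24 weeks old, and fed ad libitum (AL) or with 30% less food for 6 weeks (CR). Marrow was flushed from the distal tibia, and each sample pooled 2 mice, which gave 4 BMAd-Pnpla2+/+ AL, 4 BMAd-Pnpla2+/+ CR, 3 BMAd-Pnpla2-/- AL and 3 BMAd-Pnpla2-/- CR samples. BMAd-Pnpla2+/+ mice are called controls and BMAd-Pnpla2-/- mice deleted mice where both are compared. In the deleted mice, floxed Pnpla2 alleles were recombined by a Cre that sits at the 3′ end of the adiponectin gene and is switched on by a FLPo recombinase expressed from the Osterix locus. The control mice carry the FLPo and Cre alleles as well and lack only the floxed alleles. The Cre cassette lowers adiponectin protein in both genotypes, while for its mRNA in bone the paper reports only a slight fall that was not significant. The recombination is incomplete in young mice. The plugs hold every cell of the marrow, so the libraries measure no cell type on its own, and in such bulk samples fewer cells of a type and less RNA per cell cannot be told apart.

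Carbonic anhydrases are zinc enzymes that convert carbon dioxide and water to bicarbonate and a proton and back. In red cells they let carbon dioxide be carried in the blood as bicarbonate, in osteoclasts they supply the protons that dissolve bone mineral, and in adipocytes they have been linked to the supply of bicarbonate for lipid synthesis. CAR1 and CAR2 are the classical cytosolic enzymes of the red cell, and loss of CAR2 in humans causes osteopetrosis. CAR3 is an abundant cytosolic protein of adipocytes and slow muscle with weak hydratase activity, CAR13 is a further cytosolic form, and CAR4 is anchored to the outer face of the cell membrane.

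Of the members, 4 lie in 1 cluster on chromosome 3 (build mm10, GENCODE M21), which spans 259 kb. In the order of the chromosome these are Car13 (chr3:14641727-14663002, plus strand), Car1 (chr3:14766216-14808368, minus strand), Car3 (chr3:14863512-14872523, plus strand) and Car2 (chr3:14886273-14900770, plus strand). The gap is 103 kb between Car13 and Car1, 55.1 kb between Car1 and Car3, and 13.7 kb between Car3 and Car2. Car4 lies apart, on chromosome 11 (chr11:84957786-84966044, plus strand). The cluster also holds 2 pseudogenes, Gm5843 and Gm16399, which had 32 and 19 counts over all 14 samples against 78162 for Car1. No member overlaps an annotated gene on the opposite strand, and Gm16399 lies within Car1 on the same strand.

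The coding sequences of the 4 clustered genes are related but distinct, which bears on whether reads could be assigned to the wrong member. Their coding lengths were 789 bases for Car13, 786 for Car1 and 783 for Car3 and Car2, and 326 of the 780 aligned positions (41.8%) held the same base in all 4. Between pairs of the 4, identity ran from 61.3% (Car2 and Car13) to 64.5% (Car1 and Car13). Car4 was 45.1% to 48.8% identical to them. The longest run of bases shared by any pair of their transcripts was 30, for Car2 and Car13, which is short against the 100-base reads. The 60 coding bases below, within 1 exon in each gene, are the stretch with the most positions in common and cover codons of histidines that hold the catalytic zinc. Capitals mark the 35 positions with the same base in all 4 genes, and the bases are read 5′ to 3′ on the coding strand, from the GENCODE M21 transcripts. They lie at chr3:14650687-14650746 in exon 3 of Car13, chr3:14776249-14776308 on the minus strand in exon 4 of Car1, chr3:14866831-14866890 in exon 3 of Car3 and chr3:14895050-14895109 in exon 3 of Car2.
Car13: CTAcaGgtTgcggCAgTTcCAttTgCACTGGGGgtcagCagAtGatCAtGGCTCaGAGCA
Car1: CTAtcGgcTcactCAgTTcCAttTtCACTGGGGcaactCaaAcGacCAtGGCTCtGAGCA
Car3: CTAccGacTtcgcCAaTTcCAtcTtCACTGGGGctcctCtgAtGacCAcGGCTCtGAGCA
Car2: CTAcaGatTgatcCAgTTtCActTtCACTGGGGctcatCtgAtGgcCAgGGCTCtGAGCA
The members differed least between Car3 and Car2, at 12 of the 60 bases, and most between Car13 and Car1 and between Car1 and Car2, at 17 each, so a 100-base read that spans this stretch covers at least 12 bases that differ between any pair of members.

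The libraries held 25282327 to 27475056 read pairs, of which 18898324 to 21665553 were counted on a gene without regard to strand. The 3 BMAd-Pnpla2-/- CR libraries differed in kind from the other 11, with 50.1% to 50.5% of gene counts on the first strand against 4.3% to 4.62%, so library type and that group cannot be told apart, and unstranded counts were used throughout. For the 4 clustered members 99.1% to 99.7% of the stranded counts of the 11 libraries were on the gene's own strand. Levels are given as CPM, the count of a gene scaled to the size of its library after TMM normalisation. Pnpla2 itself was 216 ± 57.6 CPM (SD) in BMAd-Pnpla2+/+ AL (n = 4), 828 ± 237 in BMAd-Pnpla2+/+ CR (n = 4), 146 ± 21.4 in BMAd-Pnpla2-/- AL (n = 3) and 221 ± 44.8 in the BMAd-Pnpla2-/- CR group (n = 3). Under edgeR's quasi-likelihood test it was lower in the deleted mice at CR (log2 fold change −1.90, SE 0.26, adjusted p = 0.0386). With single samples left out this fold change stayed between −1.77 and −2.08, and its adjusted p under edgeR reached 0.220 without BMAd-Pnpla2-/- CR sample 1. In BMAd-Pnpla2+/+ CR, samples 2 and 3 stood apart with low levels of red cell genes. Marker lists are given with all samples only, while fold changes of single genes that turn on this pair are also given without it. Without both, the value of Pnpla2 between genotypes at CR was −1.56 (adjusted p = 0.0994 by edgeR).

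**Figure D1:**
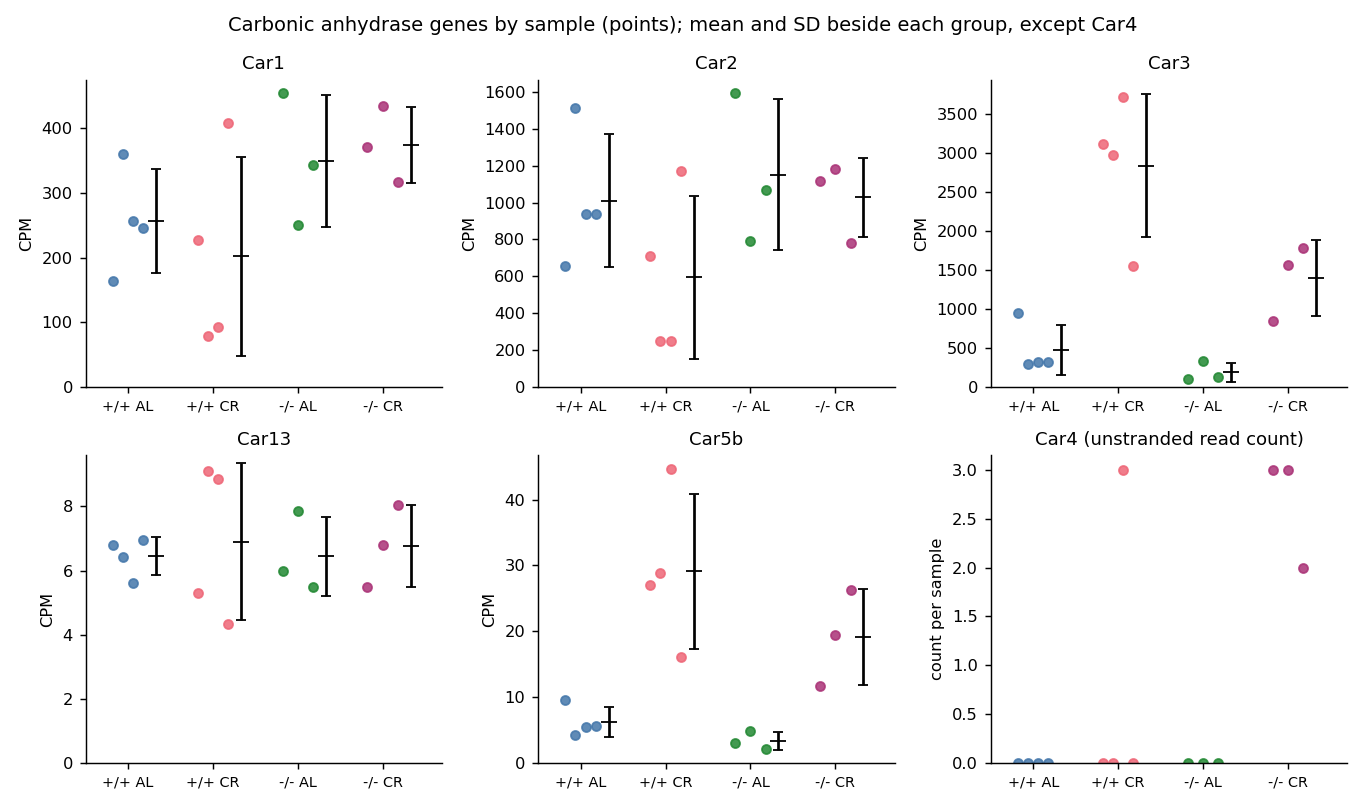
Level of each member and of Car5b in the 14 samples, as CPM (Car4: as the unstranded read count), with 1 point per sample and, beside each group except for Car4, the mean and SD. Car3 and Car5b are higher in each CR group than in the AL group of the same genotype with no overlap, Car1, Car2 and Car13 overlap between all groups, and no Car4 count exceeds 3.

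Car3 was the member whose level differed most between the diets. In BMAd-Pnpla2+/+ AL its level was 955, 292, 327 and 327 CPM in samples 1 to 4, and in BMAd-Pnpla2+/+ CR it was 3125, 2973, 3719 and 1555 CPM. The lowest CR sample was above the highest AL sample, and AL sample 1 was far above the other 3. In BMAd-Pnpla2-/- AL the values were 106, 335 and 125 CPM, and in BMAd-Pnpla2-/- CR they were 847, 1566 and 1784 CPM. The deleted mice thus showed the same separation of diets at lower levels. A separation of this kind, with every CR sample above every AL sample, was found for 12.4% of the 17671 genes tested in the controls and for 20.5% in the deleted mice. The log2 fold change of Car3 with CR was 2.58 (SE 0.48), or 5.98-fold, in the controls and 2.89 (SE 0.56), or 7.41-fold, in the deleted mice. Between genotypes it was −1.33 (SE 0.51) at AL and −1.02 (SE 0.50) at CR, with overlapping samples at each diet, and the difference of the diet effects was 0.31 (SE 0.70). Ordered by mean level, BMAd-Pnpla2+/+ CR came first (2843 ± 917 CPM, SD), then BMAd-Pnpla2-/- CR (1399 ± 490), BMAd-Pnpla2+/+ AL (475 ± 320) and BMAd-Pnpla2-/- AL (189 ± 127), and each neighbouring pair in that order overlapped in its samples.

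Under the criteria of the study, an adjusted p below 0.05 together with a log2 fold change beyond 1 in either direction, 1 of the 4 members that were tested was past them with CR in BMAd-Pnpla2+/+ mice, where 9.28% of all genes were (7.33% higher with CR), and 1 of 4 in BMAd-Pnpla2-/- mice, where 3.53% were (2.62% higher with CR). That member was Car3 in each genotype. None of the 4 was past them under edgeR or DESeq2 between the genotypes at AL, where 0% of all genes were, at CR (0.00566%) or in the interaction of genotype and diet (0%). By edgeR 700, 4095 and 1836 of all genes had an unadjusted p under 0.05 in these comparisons, and by DESeq2 12, 103 and 2 were past the criteria. Since the members were selected on these contrasts, nothing is read from the counts. Car3 rested partly on single libraries: it was outside the criteria in BMAd-Pnpla2-/- mice without AL sample 3 and in BMAd-Pnpla2+/+ mice without CR samples 2 and 3 together, where its log2 fold change was 2.30 (SE 0.58). Over all 23 alternatives its log2 fold change in BMAd-Pnpla2+/+ mice lay between 2.30 and 3.17, and over the 22 in BMAd-Pnpla2-/- mice between 2.57 and 3.55.

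Car1 and Car2 were high in all groups and varied widely between samples of 1 group. Car2 ranked 75 and Car1 ranked 515 among the 17671 genes by mean CPM, and Car3 ranked 50. Car1 was 164, 360, 257 and 246 CPM in samples 1 to 4 of BMAd-Pnpla2+/+ AL and 228, 79.2, 92.3 and 409 CPM in the BMAd-Pnpla2+/+ CR samples. It was 455, 251 and 343 CPM in BMAd-Pnpla2-/- AL, against 371, 435 and 316 CPM in BMAd-Pnpla2-/- CR. The highest BMAd-Pnpla2+/+ CR sample was 5.16 times the lowest, against 1.37 to 2.20 times in the other groups, and all groups overlapped. The log2 fold change of Car1 with CR was −0.35 (SE 0.43) in the controls and 0.10 (SE 0.50) in the deleted mice, and between genotypes it was 0.45 (SE 0.46) at AL and 0.89 (SE 0.46) at CR.

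Car2 ran alongside Car1 across the samples, at 2.47 to 4.19 times its CPM. Its values were 655, 1510, 937 and 937 CPM in BMAd-Pnpla2+/+ AL, against 710, 251, 249 and 1171 CPM in BMAd-Pnpla2+/+ CR. They were 1593, 789 and 1068 CPM in BMAd-Pnpla2-/- AL, against 1118, 1182 and 783 CPM in BMAd-Pnpla2-/- CR. CR samples 2 and 3 of BMAd-Pnpla2+/+ were again the lowest of all 14, and the other samples overlapped between groups. The log2 fold change with CR was −0.76 (SE 0.45) in the controls and −0.16 (SE 0.51) in the deleted mice, and between genotypes it was 0.19 (SE 0.48) at AL and 0.79 (SE 0.48) at CR. The value in BMAd-Pnpla2+/+ mice turned on which CR samples were kept: without CR sample 4 it was −1.32 (SE 0.40), and without samples 2 and 3 it was −0.10 (SE 0.35). For Car1 the same omissions gave −0.95 (SE 0.36) and 0.31 (SE 0.32). Between genotypes at CR the value of Car1 was 1.49 (SE 0.38) without sample 4 and 0.23 (SE 0.34) without samples 2 and 3, and that of Car2 was 1.35 (SE 0.42) and 0.13 (SE 0.37).

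**Figure D2:**
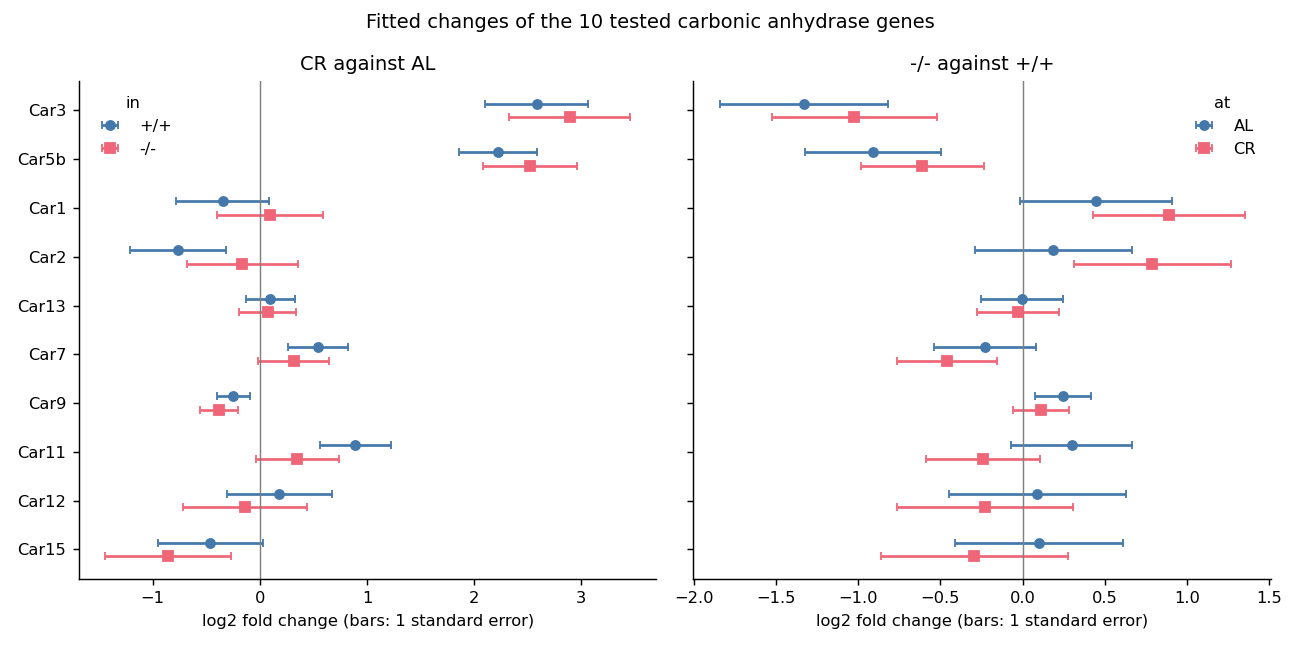
Fitted log2 fold changes of the 10 carbonic anhydrase genes tested, with bars of 1 standard error, for CR against AL in each genotype (left) and for BMAd-Pnpla2-/- against BMAd-Pnpla2+/+ at each diet (right). Car3 and Car5b lie above 2 with CR in each genotype, and the other 8 genes lie between −0.85 and 0.89.

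Car13 was a low transcript whose group means were close, at 6.44 to 6.90 CPM. Its level was 6.81, 6.44, 5.61 and 6.97 CPM in BMAd-Pnpla2+/+ AL, against 5.31, 9.12, 8.85 and 4.33 CPM in BMAd-Pnpla2+/+ CR. It was 5.98, 7.84 and 5.50 CPM in BMAd-Pnpla2-/- AL, against 5.48, 6.78 and 8.04 CPM in BMAd-Pnpla2-/- CR, so the groups overlapped throughout. Within BMAd-Pnpla2+/+ CR the samples with the most Car13, numbers 2 and 3, were those with the least Car1 and Car2. The 4 contrasts between groups ran from −0.03 (SE 0.25) to 0.10 (SE 0.23) on the log2 scale, and the 95% interval with CR in BMAd-Pnpla2+/+ mice was −0.35 to 0.55. Without CR samples 2 and 3 the value with CR in the controls was −0.42 (SE 0.21), of the opposite sign and outside that interval, and between genotypes at CR it was 0.49 (SE 0.22).

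Car4 was at the limit of counting. The 4 BMAd-Pnpla2+/+ AL and the 3 BMAd-Pnpla2-/- AL samples had 0 counts, as did 3 of the 4 BMAd-Pnpla2+/+ CR samples, and the remaining one had 3. The BMAd-Pnpla2-/- CR samples had 3, 3 and 2 counts, in the libraries without strand. A count of 0 allows up to 3 counts, or 0.133 to 0.163 CPM by library, so no level and no fold is given for Car4, and it was not detectable at this depth in 10 samples. These limits cover counting error only.

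Compared with each other, levels are given per length, as CPM per kb of merged exons. In BMAd-Pnpla2+/+ AL the order was Car2 (417 ± 148, SD), Car1 (206 ± 64.6), Car3 (166 ± 112) and Car13 (2.81 ± 0.26). In BMAd-Pnpla2+/+ CR it was Car3 (992 ± 320), Car2 (246 ± 182), Car1 (162 ± 123) and Car13 (3.0 ± 1.06). In BMAd-Pnpla2-/- AL it was Car2 (475 ± 169), Car1 (280 ± 81.8), Car3 (65.9 ± 44.3) and Car13 (2.80 ± 0.54), and in BMAd-Pnpla2-/- CR it was Car3 (488 ± 171), Car2 (424 ± 88.6), Car1 (300 ± 47.3) and Car13 (2.94 ± 0.56). Car3 thus stood first under CR and behind Car2 and Car1 under AL in each genotype. Car1 and Car3 in BMAd-Pnpla2+/+ AL, Car1 and Car2 in BMAd-Pnpla2+/+ CR, and Car3 and Car2 in BMAd-Pnpla2-/- CR differed by less than their SDs. Per kb of the longest transcript, Car3 (283 ± 191) came before Car1 (215 ± 67.5) in BMAd-Pnpla2+/+ AL, and the first place was held by the same gene in every group.

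The ratio of Car2 to Car1 within a sample, which no scaling between libraries can change, moved with the diet although neither gene separated the diets by itself. It was 4.0, 4.19, 3.65 and 3.81 in BMAd-Pnpla2+/+ AL, against 3.11, 3.17, 2.70 and 2.86 in BMAd-Pnpla2+/+ CR. It was 3.50, 3.14 and 3.11 in BMAd-Pnpla2-/- AL, against 3.01, 2.72 and 2.47 in BMAd-Pnpla2-/- CR. Every CR sample was below every AL sample of its genotype, and every BMAd-Pnpla2-/- AL sample was below every BMAd-Pnpla2+/+ AL sample, while the genotypes overlapped at CR. The means were 3.91 ± 0.24, 2.96 ± 0.22, 3.25 ± 0.22 and 2.74 ± 0.27 (SD) in BMAd-Pnpla2+/+ AL and CR and BMAd-Pnpla2-/- AL and CR. The ratio held the pattern for the BMAd-Pnpla2+/+ CR samples with little and with much Car1 alike. As both genes are members, the ratio was not tested. How often ratios of other genes separate the groups was not counted, for this ratio or for those below. Among single genes, 12.4% in the controls and 20.5% in the deleted mice had every CR sample above every AL sample, the opposite direction to this ratio. The share of genes with every CR sample below every AL sample was not counted.

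**Figure D3:**
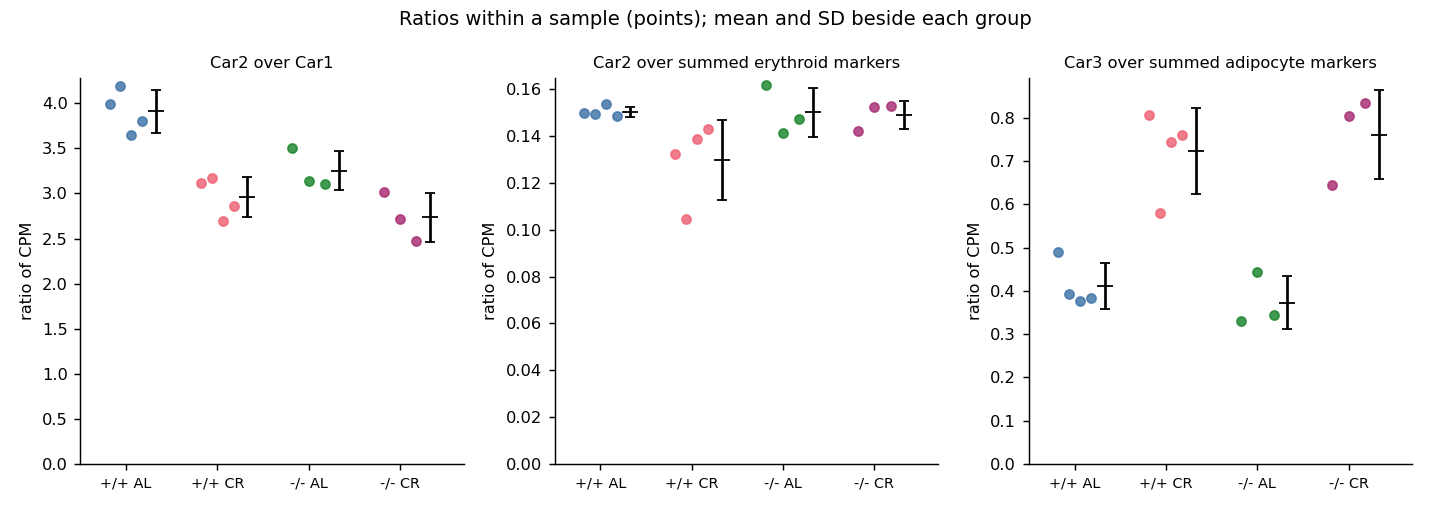
Ratios of CPM within each sample for Car2 over Car1, Car2 over the summed erythroid markers and Car3 over the summed adipocyte markers, with 1 point per sample and the mean and SD beside each group; all axes start at 0. Car2 over Car1 is lower, and Car3 over the adipocyte markers higher, in each CR group than in the AL group of its genotype, with no overlap.

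The levels of the members were set beside 12 lists of cell type markers. These lists were chosen with earlier results of these data known, so counts of their genes past the criteria are a description. The summed level of 12 erythroid genes, among them Klf1 and Alas2, moved with Car1 and Car2. It ran from 4367 to 10099 CPM in BMAd-Pnpla2+/+ AL, 1796 to 8179 in BMAd-Pnpla2+/+ CR, 5583 to 9842 in BMAd-Pnpla2-/- AL, and 5122 to 7867 CPM across BMAd-Pnpla2-/- CR, with no marker at 0 in any sample. Of the 12 genes, 0 were past the criteria with CR in either genotype under edgeR or DESeq2, with 1 and 0 at an unadjusted p under 0.05. Over the 12 the middle log2 fold change was −0.65 in the controls and −0.22 in the deleted mice, beside 0.00 and 0.05 over all genes tested. In BMAd-Pnpla2+/+ CR samples 2 and 3, where Car1 and Car2 were lowest, the erythroid sum was 2393 and 1796 CPM. Car2 over the erythroid sum was 0.150 ± 0.0022, 0.130 ± 0.0172, 0.150 ± 0.0106 and 0.149 ± 0.0061 (SD) in BMAd-Pnpla2+/+ AL and CR and BMAd-Pnpla2-/- AL and CR. Car1 over the same sum was 0.0386 ± 0.0027, 0.0443 ± 0.0084, 0.0462 ± 0.0012 and 0.0550 ± 0.0074. Relative to this sum, Car2 was thus close in 3 of the groups and lower in every BMAd-Pnpla2+/+ CR sample than in any BMAd-Pnpla2+/+ AL sample, and Car1 was higher in each BMAd-Pnpla2-/- AL sample than in any BMAd-Pnpla2+/+ AL sample. The sum leans on 1 gene, Slc4a1, at a mean of 3279 of 6718 CPM in BMAd-Pnpla2+/+ AL and 2158 of 4431 in BMAd-Pnpla2+/+ CR. Ratios to single erythroid genes were not computed. The part of red cell content in the levels of Car1 and Car2 was not tested.

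Car3 moved with the adipocyte markers, and further than their sum with diet. The summed level of 10 adipocyte genes, such as Adipoq, Plin1 and Cidec, ran from 746 to 1946 CPM in BMAd-Pnpla2+/+ AL and from 2044 to 5133 in BMAd-Pnpla2+/+ CR, and from 323 to 756 in BMAd-Pnpla2-/- AL and from 1315 to 2138 in BMAd-Pnpla2-/- CR. Of the 10 genes, 9 were past the criteria with CR in each genotype, all higher, and none was at 0 in any sample. Of all genes, 7.33% were past the criteria and higher in the controls and 2.62% in the deleted mice. The middle log2 fold change of the 10 adipocyte genes was 1.90 in the controls and 2.19 in the deleted mice. Car3 over this sum was 0.490, 0.392, 0.377 and 0.383 in BMAd-Pnpla2+/+ AL, against 0.807, 0.579, 0.743 and 0.761 in BMAd-Pnpla2+/+ CR. It was 0.330, 0.443 and 0.344 in BMAd-Pnpla2-/- AL, against 0.644, 0.805 and 0.834 in BMAd-Pnpla2-/- CR. The diets did not overlap in either genotype, with a difference of mean log2 ratios of 0.81 and 1.04, while the genotypes overlapped at each diet. Set against single markers, the ratio was higher with CR without overlap for 5 of the 10 genes in the controls and for 7 of 10 in the deleted mice. Separation in the other direction was not counted. Against Lep, the gene of leptin, it moved the other way, by −0.64 and −1.07 on the log2 scale, and against Retn, the gene of resistin, by −0.86 in BMAd-Pnpla2+/+ mice, so the excess over the sum did not hold for each adipocyte gene. AL sample 1 of BMAd-Pnpla2+/+, the sample with the most Car3 under AL, also had the largest adipocyte sum under AL, 1946 CPM.

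**Figure D4:**
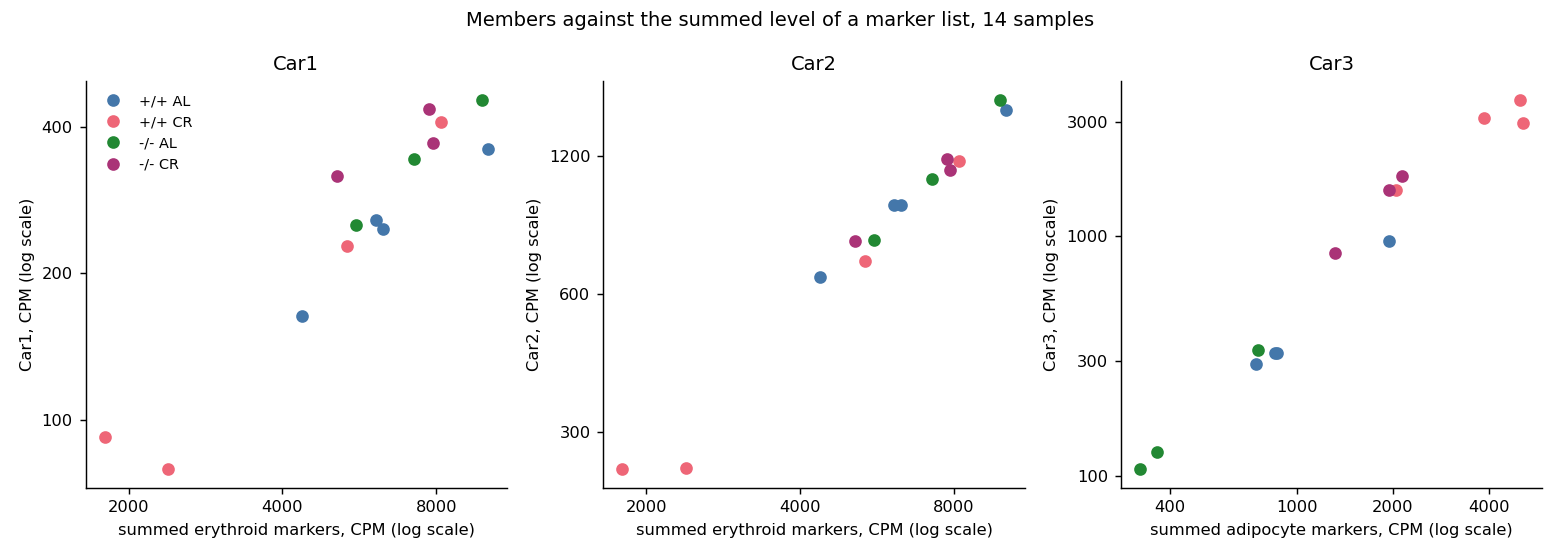
CPM of Car1 and Car2 against the summed CPM of 12 erythroid markers, and of Car3 against the summed CPM of 10 adipocyte markers, with 1 point per sample in 14 samples and log axes. Car1 and Car2 rise along the erythroid sum, with BMAd-Pnpla2+/+ CR samples 2 and 3 at the low end, and Car3 rises along the adipocyte sum, with CR samples above AL samples of like sum.

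Skeletal muscle, another tissue with Car3, was read from 8 genes. None of the 8 is particular to slow muscle, so muscle of that kind was not measured on its own. Their sum was 7.38 to 30.5 CPM in 12 samples, 43.8 in BMAd-Pnpla2-/- CR sample 2 and 128 in sample 3, and Ckm, Myh1, Myh4 and Pvalb were at 0 in at least 1 sample. The BMAd-Pnpla2+/+ CR samples, with 7.38 to 16.7 CPM of muscle genes, had 1555 to 3719 CPM of Car3. Muscle genes summed to 11.5, 43.8 and 128 CPM in BMAd-Pnpla2-/- CR samples 1 to 3, where Car3 was 847, 1566 and 1784 CPM. Osteoclasts, which use Car2, were measured by 8 genes. Their sum ran from 121 to 332 CPM in BMAd-Pnpla2+/+ AL, 242 to 1300 in BMAd-Pnpla2+/+ CR, 119 to 170 in BMAd-Pnpla2-/- AL, and 325 to 338 CPM across BMAd-Pnpla2-/- CR. Of these genes, 7 of 8 were past the criteria with CR in the controls and 1 of 8 in the deleted mice, all higher. Of all genes, 7.33% and 2.62% were past them and higher. At an unadjusted p under 0.05 by edgeR were 7 and 5 of the 8 osteoclast genes. The middle log2 fold change was 1.72 in the controls and 1.78 in the deleted mice, the interaction was past the criteria for 0 of the 8 under edgeR or DESeq2, with 0 at an unadjusted p under 0.05, and Calcr was at 0 in at least 1 sample. Across samples 1 to 4 of BMAd-Pnpla2+/+ CR the osteoclast sum was 242, 1300, 306 and 384 CPM, and Car2 was 710, 251, 249 and 1171 CPM. Samples 2 and 3 also had the lowest erythroid sums of that group, 2393 and 1796 CPM. Of the 6 muscle genes tested, 0 were past the criteria with CR in either genotype under edgeR, and in the deleted mice 5 had an unadjusted p under 0.05 and 2 were past them under DESeq2. The parts of muscle and osteoclasts in Car3 and Car2 were not tested. Among the other lists, all 6 B cell precursor genes fell past the criteria with CR in each genotype. So did 2 of 5 eosinophil, basophil and mast cell genes in each. In the controls 2 of 9 mature neutrophil genes fell, and 2 of 6 stroma and osteoblast genes and 1 of 8 endothelial genes rose. Across BMAd-Pnpla2+/+ CR samples 1 to 4 the mature neutrophil sum was 21104, 11439, 12791 and 22656 CPM. The stroma and osteoblast sum was 8718, 11348, 8819 and 5333 CPM, and the endothelial sum 973, 1560, 1331 and 763 CPM. Past the criteria with CR were 9.28% of all genes in the controls and 3.53% in the deleted mice. None of the neutrophil precursor, megakaryocyte, or monocyte and macrophage genes was past the criteria with CR in either genotype under edgeR or DESeq2. At an unadjusted p under 0.05 by edgeR were 4 of 4, 3 of 3 and 2 of 5 genes tested in the controls. In the deleted mice these were 2 of 4, 1 of 3 and 3 of 5. Of all 17671 genes, 7138 and 5145 had such a p. The middle log2 fold changes of the lists were −0.49, −0.72 and 0.29 in the controls and −0.42, −0.50 and −0.07 in the deleted mice.

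Within groups, Car1 and Car2 varied with the red cell genes and Car3 with the adipocyte genes, while Car13 was closest to other lists and Car4 was too low to be set beside any. For each gene or list, log2 CPM values were expressed as deviations from the means of the 4 groups, and Pearson's r was taken over the 14 samples as a description, since values of 1 sample share its library and scaling. Car1 and Car2 had r = 0.99 with each other, and 0.96 and 0.99 with the mean of the erythroid list. Car3 had r = 0.95 with the adipocyte list and −0.65 and −0.67 with Car1 and Car2, its neighbours on the chromosome. Car13 had r = −0.85 and −0.86 with Car1 and Car2, 0.62 with Car3, 0.78 with the adipocyte list, 0.86 with the endothelial list and −0.86 with the mature neutrophil list. With the osteoclast list, r was −0.28 for Car2, and with the skeletal muscle list −0.04 for Car3. The neutrophil precursor, megakaryocyte, B cell precursor, monocyte and macrophage, stroma and osteoblast, and eosinophil, basophil and mast cell lists gave r from −0.74 (neutrophil precursors with Car13) to 0.81 (monocytes and macrophages with Car3).

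**Figure D5:**
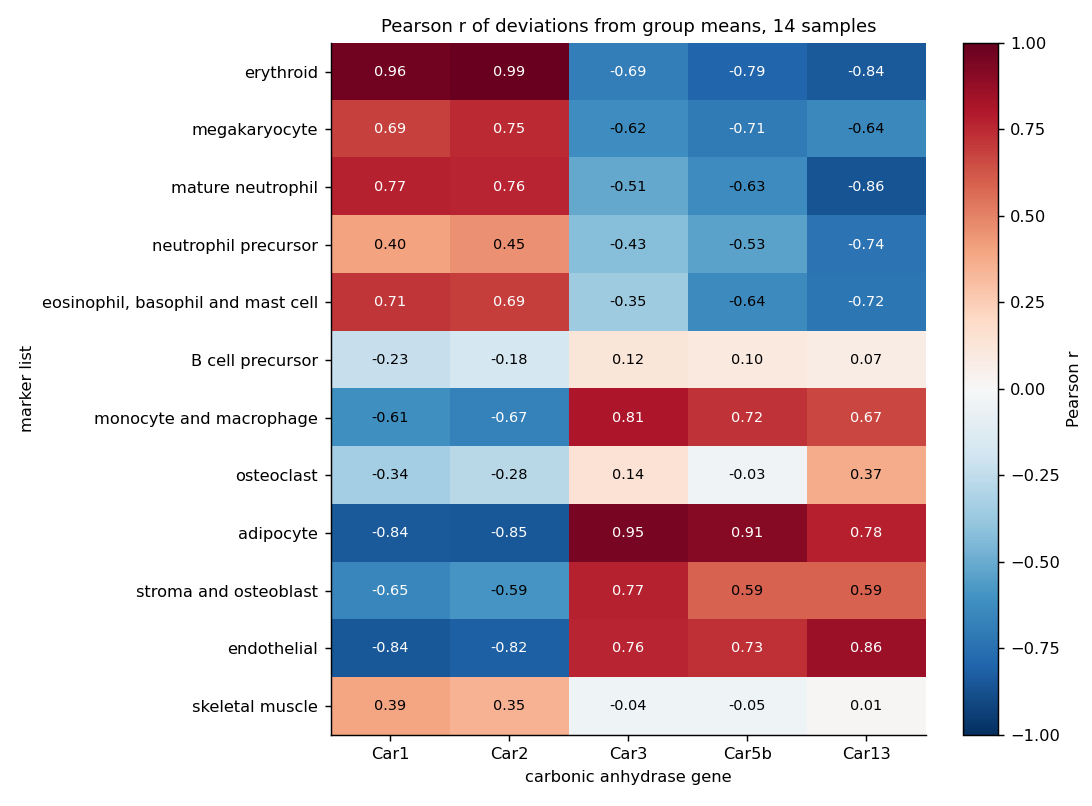
Pearson's r, over 14 samples, between the deviations of 5 carbonic anhydrase genes (columns) and of 12 marker lists (rows) from their group means, on a colour scale from −1 to 1. Car1 and Car2 are highest with the erythroid list (0.96 and 0.99), Car3 and Car5b with the adipocyte list (0.95 and 0.91) and Car13 with the endothelial list (0.86).

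Among 13051 other genes averaging 50 or more counts, those whose deviations were most like Car1 were Ces2g (r = 0.99), Abcg4, Pkhd1l1, Car2 and Rhd. Those most like Car2 were Slc43a1 (r = 0.996), Abcg4, Ermap, Dhrs11 and Kel, and Ermap is also on the erythroid list. Those most like Car3 included Mrap (r = 0.98), Cidec, B3galt2 and Scd1, and Cidec is also on the adipocyte list. Those most like Car13 were Sncaip (r = 0.97), Snx19, Bace2, Exoc6b and Plpp3. The lowest r of these 20 pairs was 0.96 here, 0.95 from the deposited matrix and 0.95 from the reverse-strand counts of the 11 stranded samples.

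Of the 11 other carbonic anhydrase genes, 6 passed the filter, and as they were not among the selected members they were tested by edgeR's quasi-likelihood test with p-values adjusted over all genes. Car5b, the gene of a mitochondrial carbonic anhydrase on the X chromosome, rose with CR in each genotype. Its level was 9.56, 4.22, 5.51 and 5.64 CPM in BMAd-Pnpla2+/+ AL, against 27.0, 28.8, 44.6 and 16 CPM in BMAd-Pnpla2+/+ CR. It was 2.94, 4.90 and 2.12 CPM in BMAd-Pnpla2-/- AL, against 11.7, 19.4 and 26.2 CPM in BMAd-Pnpla2-/- CR. No AL sample reached the lowest CR sample of its genotype. The log2 fold change was 2.22 (SE 0.37, adjusted p = 0.00248) in the controls and 2.52 (SE 0.44, adjusted p = 0.00951) in the deleted mice, and it remained past the criteria in all alternatives, with adjusted p up to 0.0397 and 0.0436. Between genotypes Car5b gave −0.91 (SE 0.41, adjusted p = 1) at AL and −0.61 (SE 0.38, adjusted p = 0.347) at CR, where it was −0.18 (SE 0.41) without BMAd-Pnpla2+/+ CR samples 2 and 3, and the interaction was 0.30 (SE 0.55, adjusted p = 0.861). Its deviations had r = 0.91 with the adipocyte list and 0.90 with Car3. Car5b over the adipocyte sum overlapped between the diets in each genotype.

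The other 5 genes tested were not past the criteria in any comparison under edgeR or DESeq2, and 1 of them, Car11, had an unadjusted p under 0.05 in 1 comparison. They were Car7, a cytosolic form, Car9 and Car12, which span the membrane, Car11, a related protein without enzyme activity, and Car15, which is anchored to the membrane. Car11 came closest, at 0.834 ± 0.259 CPM (SD, n = 4) in BMAd-Pnpla2+/+ AL and 1.54 ± 0.585 CPM (n = 4) in BMAd-Pnpla2+/+ CR (log2 fold change 0.89, SE 0.33, adjusted p = 0.0618 by edgeR). Without AL sample 1 it was past the criteria at 1.09, and without CR sample 4 also at 1.09. Without CR samples 2 and 3 together it was 0.35. Car9 and Car11 are uncertain, since 51.2% and 80.6% of their stranded counts lay on their own strand in the 11 stranded libraries. The 5 genes that did not pass the filter, Car5a, Car6, Car8, Car10 and Car14, had at most 82 counts over the 14 samples.

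Promoter sequence, from 250 bases before to 50 after the start in RefSeq (GRCm38.p6), was given for Car4 and Car5b but for no clustered member. Searched on both strands, neither promoter held AGATAA, which 11.2% of 32851 promoters hold. That of Car4 held 1 match to CACCC (57.5% of all promoters) and 1 to TATAAA (13.6%), and that of Car5b held 1 match to CCAAT (37.4%).

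Genes that work beside carbonic anhydrases were read from 4 lists of 21 genes in all, of which 18 passed the filter. As these lists too were chosen with earlier results known, their counts and p-values are a description. With CR in BMAd-Pnpla2+/+ mice 2 of the 18 rose and none fell, against 9.28% of all genes. These were the bicarbonate transporters Slc4a3, from 4.77 ± 0.840 to 11.1 ± 4.23 CPM (SD, n = 4 each; log2 fold change 1.22, SE 0.26, adjusted p = 0.00668 by edgeR), and Slc4a4, from 1.64 ± 0.340 to 4.52 ± 1.87 CPM (log2 fold change 1.46, SE 0.38, adjusted p = 0.016 by edgeR). Without CR samples 2 and 3 their log2 fold changes were 0.66 and 0.90 (adjusted p = 0.136 and 0.245 by edgeR), and without sample 3 alone the adjusted p of Slc4a4 was 0.0552. In BMAd-Pnpla2-/- mice 0 of the 18 were past the criteria under edgeR and 0 under DESeq2, with 5 at an unadjusted p under 0.05. There Slc4a3 gave 0.60 (SE 0.30) and Slc4a4 1.18 (SE 0.45), and the interaction was −0.62 (SE 0.39, adjusted p = 0.585 by edgeR) and −0.28 (SE 0.58, adjusted p = 0.879). Between genotypes 0 of 18 were past the criteria under either tool, with 1 at an unadjusted p under 0.05 at AL and 3 at CR.

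Of the red cell partners of CAR1 and CAR2, Slc4a1 and Rhag varied widely between samples as Car1 and Car2 did, and Aqp1 varied less. Slc4a1, the anion exchanger of the red cell membrane, was 3279 ± 1122 CPM (SD, n = 4) in BMAd-Pnpla2+/+ AL, against 2158 ± 1436 with CR in that genotype, with a log2 fold change of −0.60 (SE 0.41, adjusted p = 0.283 by edgeR). Without CR sample 4 it was −1.10 (adjusted p = 0.0364 by edgeR), and without samples 2 and 3 it was −0.00 (adjusted p = 0.997 by edgeR). Rhag, the Rh-associated glycoprotein, was 112 ± 50.8 and 84.9 ± 67.2 CPM in the same groups, with −0.41 (SE 0.47, adjusted p = 0.539). Between genotypes at CR Rhag gave 1.06 (SE 0.50, adjusted p = 0.226), and this became 1.71 without CR sample 4 (adjusted p = 0.0308 by edgeR) and 0.39 without samples 2 and 3 (adjusted p = 0.745 by edgeR). Aqp1, a water channel of red cells and vessels, was 872 ± 201 and 882 ± 197 CPM, with 0.02 (SE 0.19, adjusted p = 0.958). The 6 genes listed for osteoclast acid secretion, which include subunits of the proton pump, had a summed level of 618 to 792 CPM in BMAd-Pnpla2+/+ CR and 657 to 702 CPM in BMAd-Pnpla2+/+ AL. In BMAd-Pnpla2+/+ AL, Tcirg1 and Atp6v1b2 averaged 238 and 215 CPM of a mean sum of 678. Atp6v0d2, which is also on the osteoclast list, averaged 36.2 CPM. None of the 6 was past the criteria in any comparison under edgeR or DESeq2, with 3 at an unadjusted p under 0.05 with CR in the controls and 0 in the deleted mice. Over the 6 the middle log2 fold change with CR was −0.00 in the controls and −0.04 in the deleted mice. Slc9a3r1, which encodes a regulatory scaffold of membrane transporters, gave −0.34 with CR in the controls (SE 0.11, adjusted p = 0.0398 by edgeR), short of the fold criterion.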

How the data were processed

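The authors sequenced strand-specific mRNA libraries on DNBSEQ as 100-base pairs, and the submitters' processing notes name FastQC 0.11.9, STAR and DESeq2 with the build mm10. The deposited values are counts of reads per gene as STAR writes them, without strand and for each strand, with reads at several positions left out, and 1 matrix of counts in which the 3 BMAd-Pnpla2-/- CR columns are unstranded and the other 11 are reverse-strand counts. Here the unstranded counts of all 14 samples were scaled by TMM, filtered by filterByExpr and fitted in edgeR 4.0.16 (R 4.3.3) with 1 robust quasi-likelihood model of the 4 groups. Tests were two-sided, and p-values were adjusted by Benjamini and Hochberg over 17671 genes. The criteria were an adjusted p below 0.05 and a log2 fold change beyond 1 in either direction. The SE is the fold change over the root of the F statistic, and log2 CPM used a prior count of 2. Samples were grouped by their labels. Each sample pooled 2 mice, so p-values measure the spread between these pools.

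The members, the 12 marker lists and the 4 partner lists were chosen with earlier results of these data known. Named genes were the members, every other carbonic anhydrase, the partner genes, Pnpla2, the cluster's neighbours and the 5 genes most like each member. Some genes of these lists are not reported here. The erythroid and partner lists share Slc4a1, and the osteoclast and partner lists share Atp6v0d2. Coding sequences were aligned with mafft 7.526. The fit was tested on simulated data, and alternatives were other scalings, no filter, DESeq2 1.42.0, the deposited matrix, reverse-strand counts, a replicate block, fewer groups and each sample left out. Leaving out BMAd-Pnpla2+/+ CR samples 2 and 3 together was chosen after seeing the data.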

Additional observations from a re-analysis of the deposited data

Results flagged for a closer look

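In the 4 BMAd-Pnpla2+/+ AL samples, the Car3 level of sample 1, 955 CPM, lay far from the other 3, with a gap to its nearest neighbour of 0.948 of the group's range. The ratio of Car3 to the summed adipocyte markers in the same sample, 0.490, also lay apart, with a gap of 0.868 of the range, and both gaps exceeded Dixon's 95% limit for 4 samples. Of 36 sets of 4 values examined in this way, 2 were flagged, and chance flags about 1 in 20. The adipocyte sum of that sample, 1946 CPM, was the highest under AL. Without it the log2 fold change of Car3 with CR in BMAd-Pnpla2+/+ mice was 3.17, and between genotypes at AL it was −0.74.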

How the results depend on the processing

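Of 1106 log2 fold changes of carbonic anhydrase genes recomputed under the alternatives, none that was past the criteria changed direction. Those of the members moved by less than the largest SD within the groups compared, but some moved by more than their SE, and without BMAd-Pnpla2+/+ CR samples 2 and 3 the signs of Car1 (0.31) and Car13 (−0.42) with CR turned. Among the other genes of the family 2 values of Car11 crossed the criteria. The number of carbonic anhydrase genes past the criteria, 2 with CR in each genotype and 0 elsewhere, was 1 with CR in BMAd-Pnpla2+/+ mice without CR samples 2 and 3 together. With 1 sample left out in turn it ran from 2 to 4 with CR in BMAd-Pnpla2+/+ mice (4 without CR sample 4, with Car2 and Car11 added), from 1 to 2 in BMAd-Pnpla2-/- mice (1 without AL sample 3) and from 0 to 1 between genotypes at CR (Car1, without BMAd-Pnpla2+/+ CR sample 4). With the replicate block none of these counts moved. Same-numbered samples are not known to share a source, and 8 of 19 pairs had deviations correlated above 0.1. The correlations of same-numbered pairs ran from −0.50 to 0.49, and those of differently numbered pairs from −0.64 to 0.55.

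Over all genes, the count with CR in BMAd-Pnpla2+/+ mice, 1639, was 274 without CR samples 2 and 3 together and ran from 1062 to 2274 with 1 sample left out. In BMAd-Pnpla2-/- mice, 624 became 1655 from the deposited matrix, and 122 to 766 with 1 sample left out. Between genotypes at AL, 0 became 12 with DESeq2. At CR, 1 became 2 with RLE, 3 with total counts, 15 without the filter, 103 with DESeq2, 1056 from the deposited matrix, 2 with the replicate block, 0 with only the groups compared, 0 without BMAd-Pnpla2+/+ CR samples 2 and 3 together, and 0 to 416 with 1 sample left out. The interaction, 0, became 2 with DESeq2 and 484 from the deposited matrix. That matrix mixes strand-specific and unstranded columns; for the other changes the cause was not tested. A reverse-strand fit could not be made for the BMAd-Pnpla2-/- CR group. Depth limited Car4 alone among the members.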
